A study of Mus musculus with 9 samples.

Results

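Sirtuins are the NAD+-dependent protein deacylases and ADP-ribosyltransferases of mammalian cells. The family was taken as all the mouse genes from Sirt1 to Sirt7, 7 genes of the 38293 in the count table, chosen by symbol and not by any measured value. Their transcripts were measured by RNA sequencing in E14, a mouse embryonic stem cell (ESC) line of strain 129/Ola, in 3 states with 3 libraries each. mESC-2i are naive ESC kept in N2B27 medium with the MEK inhibitor PD0325901, the GSK3 inhibitor CHIR99021 and the cytokine LIF. The titles of the mESC-2i libraries alone also carry the mark LT, which the study's methods do not explain. mESC-ser are ESC grown on gelatin in foetal bovine serum with LIF. Epiblast-like cells (EpiLC) were differentiated from the naive ESC on fibronectin in N2B27 with activin A, bFGF and KSR, a medium listed without either inhibitor. All 9 libraries therefore come from 1 cell line, and the medium and the cell state change together, as does the coating of the dish for EpiLC, so that their contributions cannot be told apart. The labels number the 3 libraries of a state as biological replicates without describing their cultures, so p-values measure only the spread between these samples.

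Each sirtuin breaks down a molecule of NAD+ to remove an acyl group from a lysine, releasing nicotinamide, which in turn inhibits the enzymes. SIRT1, SIRT6 and SIRT7 are found mainly in the nucleus, SIRT2 mainly in the cytoplasm, and SIRT3, SIRT4 and SIRT5 in mitochondria. The study from which the libraries come examined lactylation of histone H3 lysine 18, and sirtuins are, together with the classical zinc-dependent histone deacetylases, among the enzymes that can remove lactyl and other acyl groups from lysines. Transcript levels are not a measure of the activity of these enzymes.

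The 250 bases before the RefSeq starts of Sirt1 and Sirt4 (build GRCm38.p6, on the strand of the gene, with each CG dinucleotide in capitals) are shown because these 2 genes spanned the widest range of levels in the family. The Sirt1 window lies at chr10:63339036-63339285 on the minus strand and the Sirt4 window at chr5:115484298-115484547, also on the minus strand.
Sirt1: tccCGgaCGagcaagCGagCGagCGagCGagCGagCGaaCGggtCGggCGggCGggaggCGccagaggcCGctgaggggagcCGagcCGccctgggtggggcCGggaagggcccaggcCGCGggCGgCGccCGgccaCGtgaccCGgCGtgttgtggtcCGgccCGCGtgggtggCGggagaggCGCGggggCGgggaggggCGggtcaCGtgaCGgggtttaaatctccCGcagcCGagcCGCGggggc
Sirt4: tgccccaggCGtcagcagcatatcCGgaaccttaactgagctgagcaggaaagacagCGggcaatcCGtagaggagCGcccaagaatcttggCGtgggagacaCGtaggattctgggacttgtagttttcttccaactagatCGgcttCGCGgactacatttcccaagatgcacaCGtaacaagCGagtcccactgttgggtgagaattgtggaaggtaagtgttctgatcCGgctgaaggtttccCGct
The Sirt1 window held 39 CG dinucleotides at an observed to expected ratio of 1.07, more CG dinucleotides than 98.4% of the 32851 RefSeq windows of this length. The Sirt4 window held 14, and the windows of the other 5 genes, of which Sirt3 and Sirt6 have 2 each, held between 12 and 21, against a median of 6 over all windows. The E-box CACGTG, which reads the same on both strands, occurred 2 times in the Sirt1 window and in none of the other sirtuin windows, whereas 6.02% of all windows hold it. On either strand, AAGGTCA, the core of the element bound by estrogen-related receptors, occurred 1 time in the Sirt5 window only and in 4.08% of all windows, and the GC box GGGCGG occurred 5 times in the Sirt1 window 3 times in 1 of the Sirt3 windows and 1 time in a window each of Sirt2, Sirt5, Sirt6 and Sirt7, against 32.7% of all windows holding it. These matches describe the sequence only and carry no measurement of binding.

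The libraries held between 7187576 and 16829549 counts assigned to genes, of which 964 to 4245 per library fell on the 7 sirtuins. Levels are given as CPM, counts relative to library size with scaling by the trimmed mean of M-values (TMM). Fold changes come from edgeR's quasi-likelihood test on 6 libraries per comparison. Calling required both an absolute log2 fold change above 0.5 and a p below 0.05 after Benjamini-Hochberg adjustment across all tested genes. As to the labelled states, the 5 pluripotency markers summed to 2049 to 2558 CPM in the mESC-2i libraries, 2585 to 2645 in those of mESC-ser and 1733 to 1823 in those of EpiLC. Of them Pou5f1 was not called in any comparison, Nanog was called lower in mESC-ser than in mESC-2i (log2 fold change -1.24) and lower again in EpiLC (-3.43 against mESC-2i), and Sox2 was called lower in EpiLC than in mESC-2i and mESC-ser (-2.94 and -2.96). Lin28a was called higher than in mESC-2i in both other states (1.90 in mESC-ser and 1.75 in EpiLC), and Sall4 was called higher in mESC-ser than in mESC-2i (1.36) and lower in EpiLC than in mESC-ser (-1.29). The summed level of 6 naive markers ran from 2230 to 2373 CPM in the mESC-2i libraries, from 1342 to 1425 in those of mESC-ser and from 40.5 to 45.9 in those of EpiLC. In mESC-ser against mESC-2i Esrrb, Klf4, Tfcp2l1 and Prdm14 were called lower (-0.63, -1.33, -1.58 and -2.10). Nr0b1 was called higher there (0.98), and Zfp42 was not called (0.21). The 5 formative markers summed to 82.6 to 93.5 CPM in the mESC-2i libraries, 780.3 to 910.3 in those of mESC-ser and 2147 to 2239 in those of EpiLC. Of other cell types, 6 fibroblast markers summed to 52.0 to 56.7 CPM in the mESC-2i libraries, 62.9 to 82.7 in those of mESC-ser and 42.2 to 46.4 in those of EpiLC, and 5 trophectoderm markers to 36.2 to 41.1, 19.8 to 22.4 and 16.1 to 17.7 CPM, with 1 of them at 0 counts in EpiLC. Within the fibroblast list, Thy1 and Dcn were called higher in EpiLC than in mESC-2i (3.25 and 4.08). Col1a1, Col1a2, Col3a1 and Pdgfrb were called lower there (-3.88, -1.55, -5.82 and -2.60). The 6 primitive endoderm markers stayed at or below 16.3 CPM in every library, and 4 markers of two-cell-like cells summed to at most 0.94 CPM in the mESC-2i libraries, 73.5 to 109.6 in those of mESC-ser and at most 12.5 in those of EpiLC. The part of such cells in the results was not tested, and in these bulk libraries fewer cells of a type and less RNA per cell cannot be told apart. Fold changes also moved with transcript length: across protein-coding genes, which are not independent replicates, the log2 fold change and exonic length had a Spearman's rho of 0.28 for mESC-ser against mESC-2i (13292 genes), -0.30 for EpiLC against mESC-2i (13037 genes) and -0.498 for EpiLC against mESC-ser (12919 genes). Values with a correction for length and GC content are therefore given beside the sirtuin fold changes where they differ by over 1.5 times or end a call.

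All 7 sirtuins were detected in every library and passed the filter on low counts in every comparison. They did not move as a block. Sirt1 was highest in mESC-ser and lowest in EpiLC, Sirt2 and Sirt4 were highest in mESC-2i, Sirt3 was lowest in mESC-ser, Sirt5 was highest in EpiLC, and Sirt6 and Sirt7 varied least (SD of log2 CPM over the 9 libraries 0.29 and 0.23). Against mESC-2i, 5 of 7 sirtuins were called in mESC-ser, where the background over all tested genes was 56.2%. Of these, 1 was higher (background 25.9%) and 4 were lower (background 30.3%). For EpiLC against mESC-2i the number was 4 of 7 at a background of 69.8%, with 1 higher (32.0%) and 3 lower (37.8%). For EpiLC against mESC-ser it was 4 of 7 at a background of 73.3%, with 3 higher (35.5%) and 1 lower (37.8%). After the length and GC correction 4, 4 and 3 of 7 sirtuins were called in these comparisons, at backgrounds of 53.0%, 65.5% and 65.7%. Total-count scaling moved the median of all genes to -0.45 and -0.41 in the EpiLC comparisons. Under it 1 sirtuin was higher and 4 lower in mESC-ser against mESC-2i (backgrounds 24.4% and 31.7%), 1 higher and 4 lower in EpiLC against mESC-2i (24.1% and 47.4%), and 2 higher and 2 lower in EpiLC against mESC-ser (28.0% and 46.9%). The share of sirtuins called was above the background in mESC-ser against mESC-2i and below it in both comparisons of EpiLC. With so few genes a single call shifts these shares, and Sirt7 lay at the threshold in the first comparison. The comparisons share libraries in pairs, so their values are set side by side and are not independent of each other. The CPM ranges of the groups did not overlap for 5 of 7 sirtuins in mESC-ser against mESC-2i, 5 of 7 in EpiLC against mESC-2i and 6 of 7 in EpiLC against mESC-ser, where 70.7%, 81.8% and 85.7% of all tested genes did not overlap. The median log2 fold change of the 7 genes was -0.52, -0.29 and 0.38 in the 3 comparisons, beside medians of -0.04, -0.11 and -0.07 over all tested genes.

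**Figure D1:**
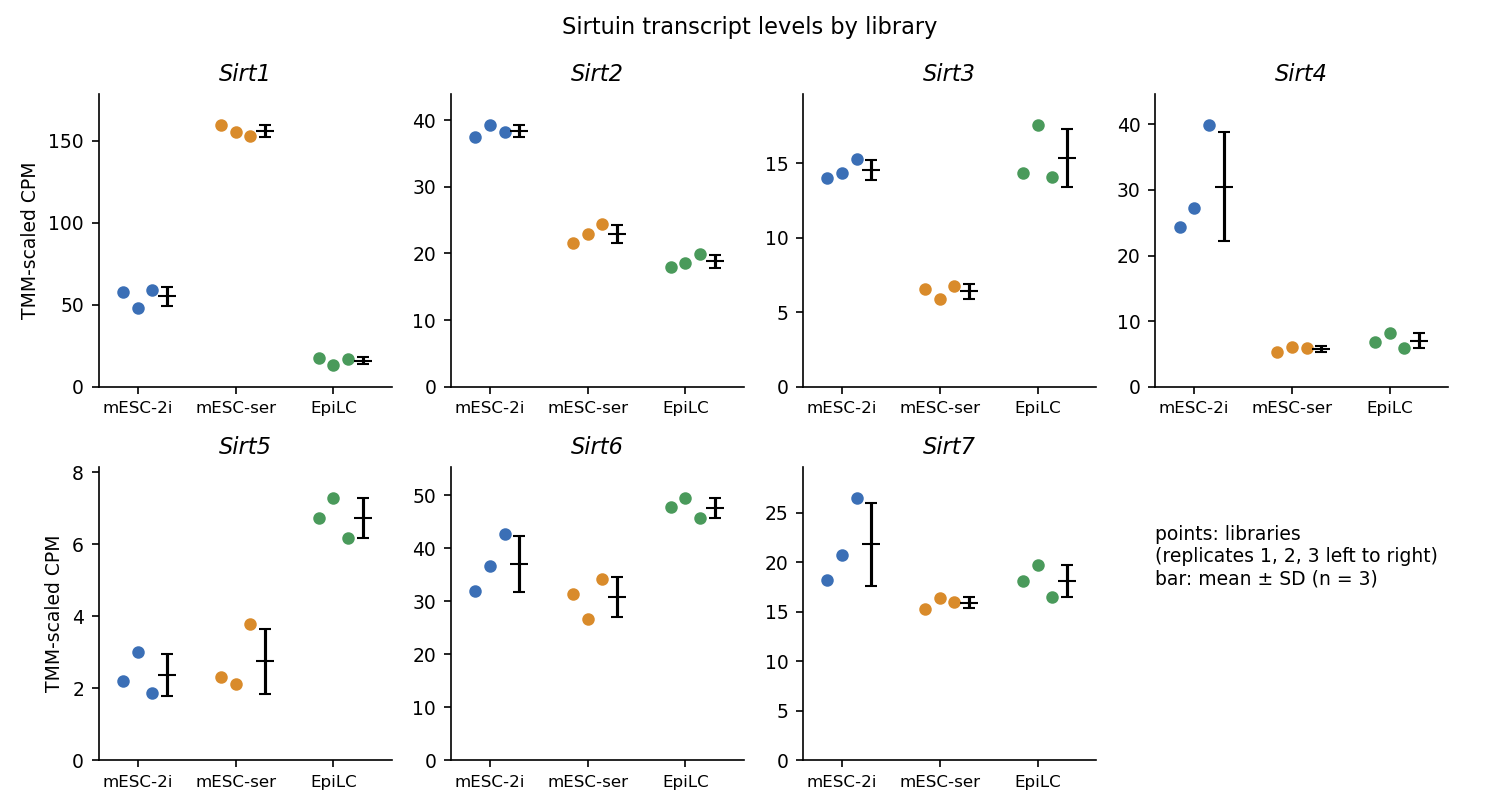
TMM-scaled CPM of each sirtuin (vertical axes, starting at 0 and scaled per gene) in the 3 libraries of mESC-2i, mESC-ser and EpiLC, with the mean and SD as bars. Sirt1 separates the 3 states, from 13.5 to 17.6 CPM in EpiLC to 152.8 to 159.7 CPM in mESC-ser, while the groups of Sirt7 lie close together.

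Of the nuclear members, Sirt1 changed most. SIRT1 deacetylates histones, p53, FOXO factors and many other nuclear proteins. Its gene (ENSMUSG00000020063, chr10:63319005-63381704, minus strand, 5331 exonic bases) had 58.0, 48.3 and 59.0 CPM in the mESC-2i libraries, 160, 155 and 153 CPM in the mESC-ser libraries and 17.6, 13.5 and 16.6 CPM in the EpiLC libraries. The 3 states did not overlap, and the spread within each was small beside the distance between them. Sirt1 was 2.72-fold higher in mESC-ser than in mESC-2i (log2 fold change 1.44 ± 0.11 SE, adjusted p = 1.92e-06). It was 3.53-fold lower in EpiLC than in mESC-2i (-1.82 ± 0.14, adjusted p = 6.21e-07), and 9.3-fold lower in EpiLC than in mESC-ser (-3.22 ± 0.10, adjusted p = 9.07e-14). With the length and GC correction the 3 log2 fold changes were 1.22, -1.51 and -2.68, all of them still called. The annotated antisense transcript Gm16145 shares 65 exonic bases with Sirt1 and had no count in any library. Dnajc12 starts on the other strand, 739 bases from the annotated start of the longest Sirt1 span. It had log2 fold changes of -0.20 in mESC-ser against mESC-2i, not called, and of -2.87 and -2.62 in EpiLC against mESC-2i and mESC-ser, both called. The RefSeq start used for the promoter window lies inside the annotated span.

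SIRT6 acts on acetylated lysines of histone H3 at telomeres and promoters and takes part in DNA repair and glucose metabolism. Sirt6 (ENSMUSG00000034748, chr10:81621785-81627797, minus strand, 2785 exonic bases) had 31.9, 36.5 and 42.6 CPM in the mESC-2i libraries, 31.4, 26.6 and 34.2 CPM in those of mESC-ser and 47.8, 49.4 and 45.6 CPM in those of EpiLC. The EpiLC libraries were above all others, and those of both ESC states overlapped. Sirt6 was 1.64-fold higher in EpiLC than in mESC-ser (log2 fold change 0.71 ± 0.10 SE, adjusted p = 4.93e-06), but with the length and GC correction this difference was 0.19 and no longer called, as with total-count scaling (0.37). In EpiLC against mESC-2i the log2 fold change was 0.34 ± 0.12 (adjusted p = 0.0199), below the fold threshold, and 0.05 with the correction. In mESC-ser against mESC-2i it was -0.33 ± 0.14 (adjusted p = 0.0561), and -0.11 with the correction. Of the sirtuins Sirt6 has the highest GC content, 58.4%. Ankrd24, which starts 743 bases from Sirt6 on the other strand, was not called in any comparison.

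SIRT7 resides in the nucleolus, binds RNA polymerase I and deacetylates histone H3 at lysine 18. Sirt7 (ENSMUSG00000025138, chr11:120618372-120625240, minus strand, 5148 exonic bases) had 18.2, 20.8 and 26.4 CPM in the mESC-2i libraries, 15.3, 16.4 and 16.0 CPM in those of mESC-ser and 18.1, 19.7 and 16.5 CPM in those of EpiLC. Replicate 3 of mESC-2i was the highest, and the EpiLC libraries overlapped those of mESC-2i. The log2 fold change in mESC-ser against mESC-2i was -0.52 ± 0.15 SE (adjusted p = 0.0102), just past the fold threshold. It was -0.35 without replicate 3 of mESC-2i and -0.46 without replicate 1 of mESC-ser, which ended the call, as did RLE scaling and DESeq2 (both -0.49) and the length and GC correction (-0.46). EpiLC differed by -0.29 ± 0.15 from mESC-2i (adjusted p = 0.106; -0.15 with the length and GC correction) and by 0.28 ± 0.11 from mESC-ser (adjusted p = 0.0307), neither of them called. With total-count scaling these values were -0.63, which was called, and -0.062. Sirt7 shares 124 exonic bases with Mafg and 54 with the microRNA gene Mir6936, both on the same strand, and Mafg was not called in any comparison.

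Sirt2, whose product deacetylates alpha-tubulin and moves to chromatin during mitosis, was highest in mESC-2i. The gene (ENSMUSG00000015149, chr7:28766735-28788661, plus strand, 5035 exonic bases) had 37.5, 39.3 and 38.3 CPM in the mESC-2i libraries, 21.6, 22.9 and 24.3 CPM in those of mESC-ser and 18.0, 18.6 and 19.9 CPM in those of EpiLC. The mESC-2i libraries were above all others, and the EpiLC libraries lay just below those of mESC-ser without overlap. Sirt2 was 1.74-fold lower in mESC-ser (log2 fold change -0.80 ± 0.11 SE, adjusted p = 8e-05) and 2.06-fold lower in EpiLC (-1.05 ± 0.10, adjusted p = 4.66e-06) than in mESC-2i. EpiLC and mESC-ser differed by -0.20 ± 0.10 (adjusted p = 0.0815; -0.13 with the length and GC correction), which was not called except with total-count scaling (-0.54). Nfkbib overlaps Sirt2 on the other strand by 42 exonic bases, and the library kit does not mark strand. Nfkbib had a log2 fold change of -0.05 in mESC-ser and 1.04 in EpiLC against mESC-2i.

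The mitochondrial members each had a pattern of their own. SIRT3 is the main protein deacetylase of mitochondria. Sirt3 (ENSMUSG00000025486, chr7:140863666-140882309, minus strand, 5973 exonic bases) had 13.998, 14.341 and 15.280 CPM in the mESC-2i libraries, 6.58, 5.85 and 6.77 CPM in those of mESC-ser and 14.4, 17.6 and 14.1 CPM in those of EpiLC. The mESC-ser libraries were below all others, while mESC-2i and EpiLC overlapped. Sirt3 was 2.36-fold lower in mESC-ser than in mESC-2i (log2 fold change -1.24 ± 0.14 SE, adjusted p = 2.18e-05) and 2.54-fold higher in EpiLC than in mESC-ser (1.34 ± 0.14, adjusted p = 1.43e-07). EpiLC and mESC-2i differed by 0.06 ± 0.14 (adjusted p = 0.695), by 0.43 with the length and GC correction, by -0.28 with total-count scaling and by -0.047 without replicate 2 of EpiLC, none of which was called. On the other strand Sirt3 shares 418 exonic bases with Ric8a at its one end and 342 with Psmd13, a proteasome subunit gene that starts head to head with it, at the other. Psmd13 was not called in any comparison, and Ric8a had log2 fold changes of -0.52 and -0.59 in mESC-ser and EpiLC against mESC-2i.

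SIRT4 is a mitochondrial deacylase and ADP-ribosyltransferase that restrains glutamate dehydrogenase and pyruvate dehydrogenase. Sirt4 (ENSMUSG00000029524, chr5:115478010-115484725, minus strand, 2398 exonic bases) had 24.3, 27.3 and 39.9 CPM in the mESC-2i libraries, 5.32, 6.11 and 5.86 CPM in those of mESC-ser and 6.85, 8.24 and 5.90 CPM in those of EpiLC. Every mESC-2i library was well above the others, with replicate 3 the highest, while mESC-ser and EpiLC overlapped. Sirt4 was 5.53-fold lower in mESC-ser (log2 fold change -2.47 ± 0.20 SE, adjusted p = 2.33e-06) and 4.41-fold lower in EpiLC (-2.14 ± 0.21, adjusted p = 4.98e-06) than in mESC-2i. Without replicate 3 of mESC-2i the log2 fold changes were -2.22 and -1.89 and both were called. EpiLC and mESC-ser differed by 0.38 ± 0.17 (adjusted p = 0.0464), below the fold threshold, and by -0.11 with the length and GC correction. No annotated gene overlaps Sirt4.

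SIRT5 removes succinyl, malonyl and glutaryl groups from lysines. Sirt5 (ENSMUSG00000054021, chr13:43365496-43395203, plus strand, 6093 exonic bases) was thinly covered, with 18 to 67 counts per library. It had 2.21, 3.00 and 1.87 CPM in the mESC-2i libraries, 2.31, 2.12 and 3.79 CPM in those of mESC-ser and 6.71, 7.27 and 6.16 CPM in those of EpiLC. All EpiLC libraries were above the ESC libraries, which overlapped between both media. Sirt5 was 2.8-fold higher in EpiLC than in mESC-2i (log2 fold change 1.49 ± 0.22 SE, adjusted p = 9.93e-05) and 2.53-fold higher than in mESC-ser (1.34 ± 0.22, adjusted p = 2.2e-05). Between mESC-ser and mESC-2i the difference of 0.18 ± 0.29 (adjusted p = 0.593) was smaller than its error, and its sign was not kept: it was -0.13 when replicate 3 of mESC-ser was left out and -0.0071 with the length and GC correction. A p that misses the threshold does not show that the levels were alike. Like Sirt4, Sirt5 overlaps no annotated gene.

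**Figure D2:**
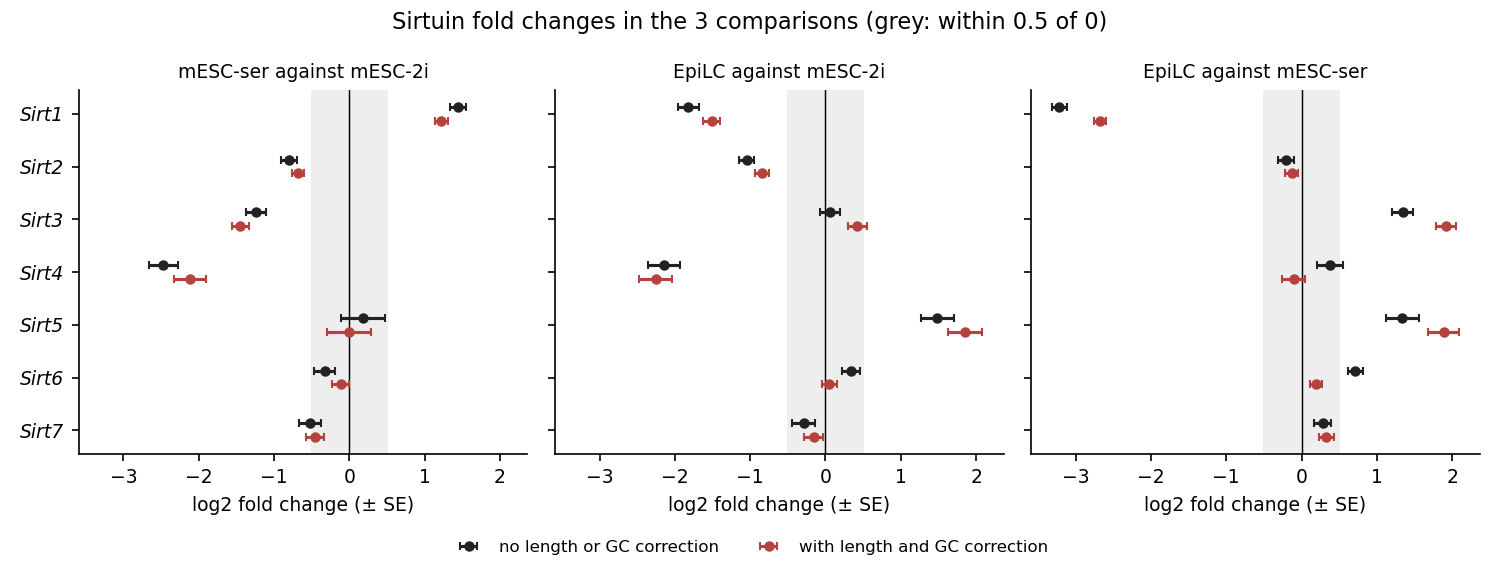
Log2 fold changes (horizontal axis, ± SE) of the 7 sirtuins in the 3 comparisons, without (black) and with (red) the length and GC correction, each from 6 libraries. The correction moves Sirt6 in EpiLC against mESC-ser from 0.71 to 0.19, into the grey band within 0.5 of 0, while the changes of Sirt1 stay outside it.

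Replicate 3 of mESC-2i held the highest CPM of its group for 5 of 7 sirtuins, the middle value for Sirt2 and the lowest for Sirt5. The log2 fold changes of Sirt1 to Sirt4 called against mESC-2i were called in every fit that left out 1 library. The same held for Sirt5 in both comparisons of EpiLC, for Sirt1 and Sirt3 in EpiLC against mESC-ser, and for Sirt6 in that comparison.

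To compare the genes with each other, levels were set per kilobase of exon (RPKM, mean ± SD, n = 3). In mESC-2i Sirt6 had 13.3 ± 1.92 RPKM and Sirt4 12.7 ± 3.46, followed by Sirt1 with 10.3 ± 1.11 and Sirt2 with 7.61 ± 0.18. The ranges of Sirt6 and Sirt4 overlapped, as did those of Sirt4 and Sirt1. Sirt7 at 4.23 ± 0.82, Sirt3 at 2.43 ± 0.11 and Sirt5 at 0.39 ± 0.095 RPKM stood apart from each other. In mESC-ser Sirt1 led with 29.3 ± 0.65 RPKM, before Sirt6 with 11.0 ± 1.36, and no 2 neighbours in the order overlapped down to Sirt5 with 0.45 ± 0.15. In EpiLC Sirt6 led with 17.1 ± 0.68 RPKM, and Sirt2, Sirt7, Sirt1, Sirt4 and Sirt3 followed between 3.73 ± 0.19 and 2.57 ± 0.33 with neighbours that overlapped. Sirt5 remained last in EpiLC, at 1.10 ± 0.091 RPKM.

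Sirt1 made up 20.4% ± 2.73 of the summed sirtuin RPKM in the mESC-2i libraries, 56.5% ± 2.14 in those of mESC-ser and 8.82% ± 1.45 in those of EpiLC. Sirt6 made up 26.0% ± 1.17, 21.2% ± 2.08 and 50.4% ± 0.229 in the same order. Sirt4 took 24.6% ± 3.35 of the sum in mESC-2i and 4.64% ± 0.41 in mESC-ser. The leading sirtuin transcript thus differed between the ESC in serum and the EpiLC. The sum over the family was 51.0 ± 6.66 RPKM in the mESC-2i libraries, 51.9 ± 1.39 in those of mESC-ser and 33.9 ± 1.44 in those of EpiLC, with the EpiLC libraries below all others. These orders depend on the length used. With the longest transcript in place of all exons, Sirt2 was second in mESC-2i with 18.1 RPKM, and Sirt1 made up 15.8%, 48.0% and 6.59% of the sum in the 3 states.

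**Figure D3:**
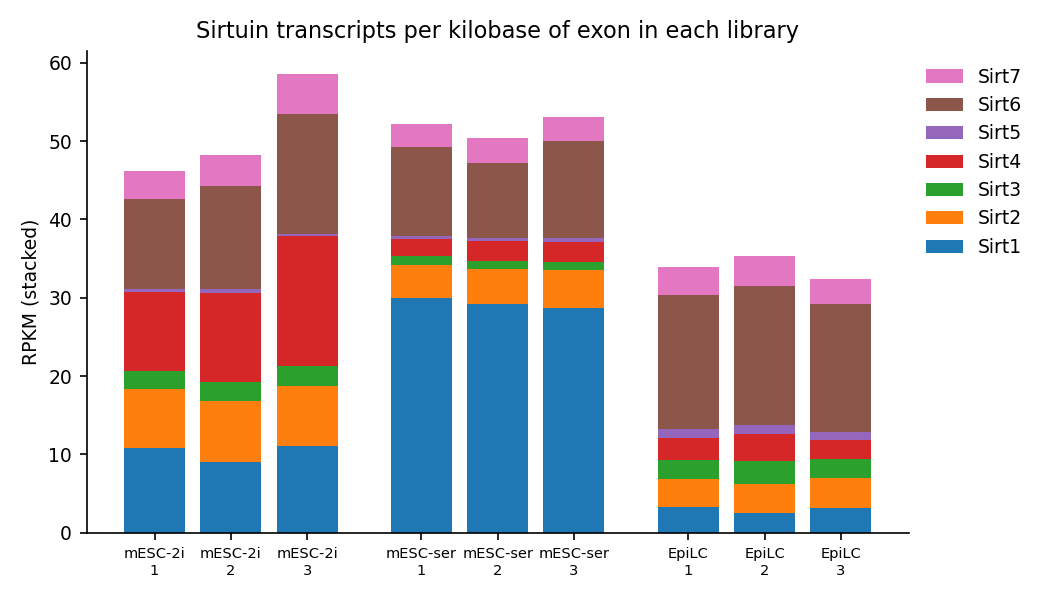
Stacked RPKM of the 7 sirtuins (vertical axis) in each of the 9 libraries. Sirt1 (blue) makes up from 54.0% to 57.9% of each mESC-ser bar, and Sirt6 (brown) is the largest segment of each EpiLC bar.

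The genes whose patterns were most like those of the sirtuins were taken by the root mean square (RMS) difference of centred log2 CPM over the 9 libraries, among 11881 genes. For Sirt1, which had an SD of 1.35 on this scale, these were the deubiquitinase gene Usp9x (RMS 0.12) and Ttc37, a component of the SKI complex (RMS 0.13). Their exonic lengths of 15051 and 11802 bases exceed the 5331 of Sirt1, and the part of length in this likeness was not tested. The nearest to Sirt4 were the splicing regulator Srrm4 (RMS 0.15) and the interferon-induced Oas1g (RMS 0.19), at a Sirt4 SD of 1.07. Sirt2 was nearest to Pcdhgc4, a protocadherin gene that shares exons with others of its cluster, and to Sptlc2, a subunit gene of serine palmitoyltransferase (RMS 0.077 and 0.082). Sirt3 was nearest to Mrnip, which acts in DNA repair, and Plekha2 (RMS 0.094 and 0.097). Sirt5 was nearest to the cytokine receptor gene Il12rb1 and the acyl-CoA thioesterase gene Acot1 (RMS 0.12 and 0.15), Sirt6 to the ion channel gene Tmem63a and the seipin gene Bscl2 (RMS 0.064 and 0.082), and Sirt7 to the chromatin reader gene Ing4 and the ubiquitin ligase gene Rnf170 (RMS 0.077 and 0.11).

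Sirtuins depend on NAD+, which cells make from nicotinamide through NAMPT and the NMNAT enzymes, from nicotinic acid, or from tryptophan. The counts of called genes in the pathway lists are to be read against all tested genes, of which 56.2% were called for mESC-ser against mESC-2i (25.9% higher, 30.3% lower), 69.8% for EpiLC against mESC-2i (32.0% higher, 37.8% lower) and 73.3% for EpiLC against mESC-ser (35.5% higher, 37.8% lower). Total-count scaling lowered the median of each list in both EpiLC comparisons, as it did the median of all tested genes (to -0.45 and -0.41). List counts under that scaling are to be read against its own shares of all tested genes. These were 24.1% higher and 47.4% lower in EpiLC against mESC-2i, and 28.0% higher and 46.9% lower in EpiLC against mESC-ser. Of 20 genes of NAD+ synthesis and nicotinamide clearance, 13 were tested in mESC-ser against mESC-2i, and 1 was called higher and 6 lower (median log2 fold change -0.12). In EpiLC against mESC-2i 14 were tested, with 4 higher and 5 lower (median -0.17, and 0.065 with the length and GC correction), and in EpiLC against mESC-ser 12, with 5 higher and 3 lower (median 0.04). With total-count scaling 4 were higher and 7 lower (median -0.51) and 5 higher and 5 lower (median -0.30) in the EpiLC comparisons. Nampt, the rate-limiting enzyme of the salvage pathway, had 146, 138 and 146 CPM in the mESC-2i libraries, 207, 205 and 134 in those of mESC-ser and 105, 98.2 and 121 in those of EpiLC. The mESC-ser libraries of Nampt were split, with replicate 3 below all mESC-2i libraries, and its only called difference was that of EpiLC against mESC-ser (log2 fold change -0.67 ± 0.14 SE, edgeR adjusted p = 0.000258).

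Nmnat1, the nuclear enzyme of the last step, had 9.46, 11.7 and 9.98 CPM in the mESC-2i libraries, 12.3, 11.8 and 8.32 in those of mESC-ser and 22.7, 26.8 and 24.9 in those of EpiLC. Its EpiLC libraries were above all ESC libraries, with log2 fold changes of 1.24 against mESC-2i and 1.30 against mESC-ser, both called. Nmnat2, the enzyme of the Golgi and cytosol, went the other way, from 42.8 ± 4.76 CPM in mESC-2i and 41.0 ± 1.09 in mESC-ser to 3.45 ± 0.16 in EpiLC, the largest called fall of the list against mESC-ser (-3.48). Qprt, which makes nicotinic acid mononucleotide from quinolinate, had the largest called rise in EpiLC against mESC-ser (2.62), and Naprt, which starts from nicotinic acid, that in mESC-ser against mESC-2i (0.89). Nnmt, which clears nicotinamide by methylation, had 17, 27 and 21 counts in mESC-2i, at most 1 in each mESC-ser library and 0 in every EpiLC library. Against a floor of 3 counts per library Nnmt was at least 9.38-fold lower in mESC-ser and at least 5.41-fold lower in EpiLC. Kynu of the tryptophan route was at or below 3 counts in every mESC-2i library and at least 8.69-fold higher in EpiLC.

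Other enzymes also use NAD+, chiefly the PARP family, which transfers ADP-ribose. Of 18 genes 17 were tested. In mESC-ser against mESC-2i 7 were called higher and 2 lower (median log2 fold change 0.19), and the median was -0.01 with the length and GC correction. In EpiLC against mESC-2i 5 were higher and 7 lower (median -0.33, and 0.17 with the correction), and in EpiLC against mESC-ser 4 were higher and 8 lower (median -0.58, and 0.10 with the correction). With total-count scaling 3 were higher and 9 lower (median -0.67) and 4 higher and 9 lower (median -0.92) in the EpiLC comparisons. The 9 of 17 called in mESC-ser stand against 56.2% of all tested genes, and the 12 of 17 in each EpiLC comparison against 69.8% and 73.3%. Parp1, the main nuclear PARP, had 478, 485 and 474 CPM in the mESC-2i libraries, 548, 541 and 620 in those of mESC-ser and 336, 339 and 316 in those of EpiLC. The EpiLC libraries of Parp1 were the lowest, with called log2 fold changes of -0.55 and -0.70 against mESC-2i and mESC-ser. The NAD+ glycohydrolase Cd38 was also lower in EpiLC (-1.66 and -1.18). Tnks, the gene of a tankyrase with long transcripts, had the largest called falls in EpiLC, -3.46 against mESC-2i and -5.66 against mESC-ser, and Parp10 the largest rises, 3.57 and 2.84. With the length and GC correction the values of Tnks were -2.73 and -4.31. In mESC-ser against mESC-2i Parp14 had the largest rise (2.75) and Parp3 the largest fall (-1.22).

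Among the genes that regulate sirtuins, 14 of 15 were tested in both comparisons with mESC-2i, with 3 called higher and 2 lower in mESC-ser and 3 higher and 5 lower in EpiLC. In EpiLC against mESC-ser 4 of 13 were higher and 5 lower. The medians of the list were -0.03, -0.13 and -0.11. With the length and GC correction 6 were higher and 2 lower in EpiLC against mESC-2i, where 4766 and 5308 of all 15378 tested genes were. The median in EpiLC against mESC-ser was then 0.11, beside 0.06 over all tested genes. With total-count scaling 3 were higher and 7 lower (median -0.47) and 2 higher and 6 lower (median -0.45) in the EpiLC comparisons. The 5 of 14 called in mESC-ser are below the background of 56.2%, the 8 of 14 in EpiLC against mESC-2i below that of 69.8%, and the 9 of 13 in EpiLC against mESC-ser below that of 73.3%. Ccar2, whose product binds and inhibits SIRT1, was not called in any comparison (-0.25, -0.24 and 0.06). Rps19bp1, whose product AROS binds and activates SIRT1, had 24.9, 29.3 and 23.8 CPM in the mESC-2i libraries, 29.7, 28.3 and 26.8 in those of mESC-ser and 78.0, 86.4 and 69.7 in those of EpiLC, where it had the largest called rises of the list (1.57 and 1.55). With the length and GC correction these rises were 0.88 and 0.54. The methyltransferase gene Setd7 had the largest rise in mESC-ser (2.28) and the nuclear receptor gene Esrra the largest fall (-0.98). Foxo3 fell most in EpiLC against mESC-2i (-1.72), and Usp22, a deubiquitinase gene, in EpiLC against mESC-ser (-1.29).

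**Figure D4:**
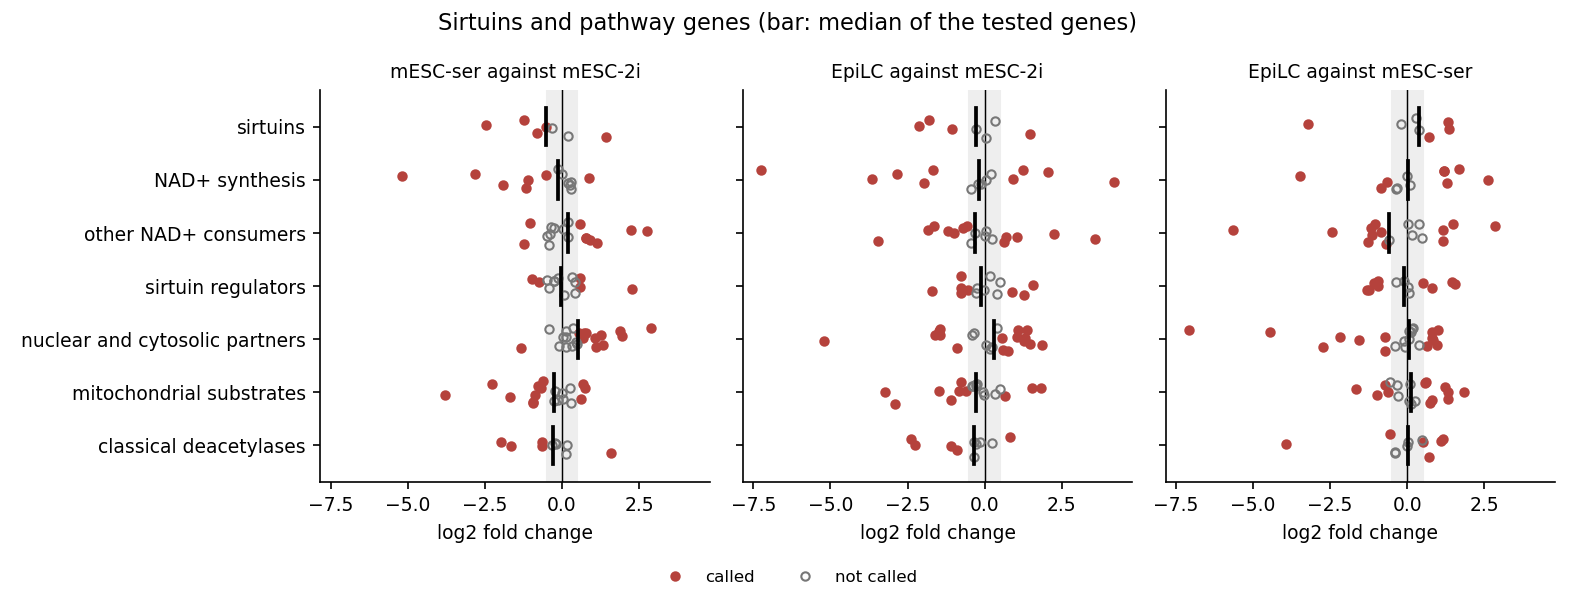
Log2 fold changes (horizontal axis) of the sirtuins and of the tested genes of 6 pathway lists in the 3 comparisons; filled points were called, open points not, and black bars are medians. With TMM scaling called genes lie on both sides of 0 in every list, and the points of Nnmt and Kynu depend on the prior count, since 1 state was at or below 3 counts.

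The 22 nuclear and cytosolic partners and substrates were all tested. In mESC-ser against mESC-2i 11 were called higher and 1 lower, at a median log2 fold change of 0.52 (0.49 with the length and GC correction), where 25.9% of all tested genes were called higher. In EpiLC against mESC-2i 10 were higher and 6 lower (median 0.31, and 0.58 with the length and GC correction), where 32.0% and 37.8% of all tested genes were. In EpiLC against mESC-ser 6 were higher and 7 lower (median 0.06), where 35.5% and 37.8% were. The direction of the EpiLC medians turned with total-count scaling, to 7 higher and 8 lower (median -0.026) against mESC-2i and to 2 higher and 8 lower (median -0.28) against mESC-ser. The largest called rise in mESC-ser was that of Tet1, a 5-methylcytosine dioxygenase gene, by 2.90 from 185.5 ± 38.3 CPM to 1439 ± 102 CPM. The largest fall there was that of Acss2, which makes acetyl-CoA from acetate in cytosol and nucleus (-1.32). Tet2 fell most in EpiLC, with 48.6, 40.1 and 88.5 CPM in the mESC-2i libraries, 221, 232 and 257 in those of mESC-ser and 2.15, 1.63 and 1.13 in those of EpiLC. Suv39h1, the histone H3 lysine 9 methyltransferase gene, had the largest rise in EpiLC against mESC-2i (1.88), and Polr1e, a subunit gene of RNA polymerase I, that against mESC-ser (0.99).

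Of 22 mitochondrial genes whose products are deacylated or regulated by SIRT3, SIRT4 or SIRT5, 19 were tested. In mESC-ser against mESC-2i 3 were called higher and 9 lower (median log2 fold change -0.27), where 30.3% of all tested genes were called lower. In EpiLC against mESC-2i 3 were higher and 7 lower (median -0.28), or 4 and 3 with the length and GC correction. Under that correction 4766 and 5308 of all 15378 tested genes were higher and lower there. In EpiLC against mESC-ser 8 of the list were higher and 4 lower (median 0.11), or 10 and 2 with the correction (median 0.54). Of all 15345 tested genes 5259 were higher and 4822 lower with the correction (median 0.06). With total-count scaling 4 of the list were higher and 7 lower (median -0.22). Against mESC-2i that scaling gave 2 higher and 12 lower (median -0.62). Acss1, the mitochondrial acetyl-CoA synthetase gene, had the largest called falls against mESC-2i, with 78.8, 80.1 and 92.7 CPM in the mESC-2i libraries, 6.30, 5.68 and 6.83 in those of mESC-ser and 10.6, 8.35 and 8.29 in those of EpiLC. These values are 13.8-fold lower in mESC-ser and 9.39-fold lower in EpiLC than in mESC-2i, and like those of Sirt4 they were high in mESC-2i only. Ppif, the gene of cyclophilin D, rose most in EpiLC (1.82 and 1.84). Opa1, a gene of mitochondrial fusion, rose most in mESC-ser (0.74, and 0.29 with the length and GC correction).

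Of 11 genes of the classical zinc-dependent deacetylases, 10 were tested against mESC-2i, with 1 called higher and 4 lower in mESC-ser (median log2 fold change -0.28) and 1 higher and 4 lower in EpiLC (median -0.35). In EpiLC against mESC-ser 4 of 11 were higher and 2 lower (median 0.02). The 5 of 10, 5 of 10 and 6 of 11 called are below the 56.2%, 69.8% and 73.3% of all tested genes. With total-count scaling none was higher and 7 were lower in EpiLC against mESC-2i (median -0.69), and 1 was higher and 4 lower in EpiLC against mESC-ser (median -0.32). Under that scaling 24.1% of all tested genes were higher and 47.4% lower in EpiLC against mESC-2i, and 28.0% and 46.9% in EpiLC against mESC-ser. Hdac4 had 9.58, 7.67 and 12.6 CPM in the mESC-2i libraries, 29.7, 29.7 and 34.5 in those of mESC-ser and 2.28, 1.63 and 1.88 in those of EpiLC, so that the order of its 3 states was the order of Sirt1. It was the largest called rise in mESC-ser (1.59) and the largest fall in EpiLC (-2.40 and -3.94). With the length and GC correction these values of Hdac4 were 1.175, -1.62 and -2.80. Hdac11 fell most in mESC-ser (-1.99) and rose most in EpiLC against mESC-ser (1.15), and Hdac8 rose most in EpiLC against mESC-2i (0.83).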

How the data were processed

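RNA of E14 cells in 3 states (9 libraries, grouped by GEO's labels) was extracted, poly(A)-selected and sequenced as 50 bp single-end reads from an unstranded kit. Per the labels and the study's methods, the authors trimmed reads with Trim Galore 0.6.6, aligned them to mm10 with HISAT2 2.2.1 and counted genes with featureCounts (Subread 2.0.1). The deposited values are raw counts, with no normalization, for 38293 genes. Symbols and lengths came from the mm10 gene annotation in the reference files used here (95.1% of identifiers matched). Promoter windows came from RefSeq (GRCm38.p6).

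In each of 3 pairwise comparisons, genes passing filterByExpr in 6 libraries were TMM-scaled and tested by edgeR 4.0.16 (quasi-likelihood, R 4.3.3) with adjustment over all 15345 to 15728 tested genes; SE is the log2 fold change over the root of F. The test was run on simulated data in which 200 genes changed by 1.5 on the log2 scale. It recovered 91.5% to 97.5% of them, with false calls at 5.8% to 7.11%. Far fewer genes changed there than were called in the real comparisons. Length and GC corrections used splines with 5 degrees of freedom as offsets. Alternatives, DESeq2 1.42.0 among them, are described at the end. Replicates differed beyond sampling noise (chi-square 1.66 to 30.5 per degree of freedom), so all 9 were kept as separate samples.

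Same-numbered libraries of mESC-ser and mESC-2i deviated together in part (r = 0.129, 0.185 and 0.344, across genes). Replicate 1 of mESC-ser had a higher r with replicate 2 of mESC-2i (0.144) than with replicate 1. Replicate 3 of mESC-ser had r of -0.162 and -0.279 with replicates 1 and 2 of mESC-2i. The fits reported here were not paired, and a replicate block was run as an alternative. Same-numbered libraries of EpiLC and mESC-2i had r of 0.0191, 0.1 and 0.107, and those of EpiLC and mESC-ser 0.0181, 0.0096 and 0.0298. All of these were low, but each was above the r of the same EpiLC library with the differently numbered libraries of that state.

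The members, lists and tests were chosen with earlier results of these data known. Named were all sirtuins, their overlapping or adjacent genes, the 2 genes nearest in pattern to each, the largest called rise and fall of each list per comparison, and Nampt, Nmnat1, Parp1, Cd38, Ccar2 and Nnmt. An item that this rule names is not reported here.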

Additional observations from a re-analysis of the deposited data

How the results depend on the processing

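Under every alternative of scaling, filtering, tool, pooling of states, replicate block, length and GC correction and left-out library, the calls of Sirt1 to Sirt6 in mESC-ser against mESC-2i, of Sirt1 to Sirt6 in EpiLC against mESC-2i, and of Sirt1, Sirt3, Sirt4, Sirt5 and Sirt7 in EpiLC against mESC-ser stayed on their side of the threshold. The replicate block changed no call, with 5 of 7 sirtuins called under it in the comparison of mESC-ser with mESC-2i. Sirt7 in that comparison (-0.52 on the log2 scale, range -0.62 to -0.35 when each library was left out) was not called under RLE scaling (-0.49), without a filter (-0.49), at 10 counts or more per library (-0.46), by DESeq2 (-0.49), with all 9 libraries fitted together (-0.50), or with the length and GC correction (-0.46, or -0.45 with the replicate block). Sirt5 there, never called, turned to -0.0071 with the length and GC correction and ranged from -0.13 (without mESC-ser replicate 3) to 0.40.

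Total-count scaling moved the median of all genes to -0.45 in EpiLC against mESC-2i and to -0.41 in EpiLC against mESC-ser. Under it Sirt3 was at -0.28 and Sirt7 at -0.63, now called, against mESC-2i, and against mESC-ser Sirt2 was at -0.54, now called, Sirt6 at 0.37, no longer called, and Sirt7 at -0.062. Sirt3 in EpiLC against mESC-2i ranged from -0.047 to 0.13 when each library was left out, and was below 0 without EpiLC replicate 2. With the length and GC correction in EpiLC against mESC-ser, Sirt4 turned to -0.11 (-0.13 with the replicate block) and Sirt6 lost its call at 0.19 (0.20 with the block). At an absolute log2 fold change above 1 the comparison of mESC-ser with mESC-2i had 3 of 7 sirtuins past it. There 4935 of all 15728 tested genes (31.4%) were past it. EpiLC had 4 of 7 sirtuins past it against mESC-2i and 3 of 7 against mESC-ser, beside 48.5% and 51.9% of all tested genes. The pathway genes past this threshold numbered 25 of 94, 39 of 95 and 34 of 93 tested in the 3 comparisons, in that order. Each of these pathway shares was below the share of all tested genes. The longest transcript of each sirtuin is shorter than its exonic length, so using it as length raises every RPKM by a fixed factor per gene. All 21 mean RPKM values thereby moved by over 1 SD. With total-count scaling 9 of them did, and with RLE scaling 1. Sirt5 rests on 18 to 67 counts per library.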
